A study of Mus musculus with 12 samples.

Results

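The interferon-inducible PARP family is a set of genes for ADP-ribosylation enzymes and their partners, and was followed here through mouse GL261 gliomas left as Control or treated with temozolomide (TMZ), a PD-1 antibody (Anti-PD-1) or both (Combination). The set names 7 genes: Parp9, Parp10, Parp11, Parp12, Parp14, Zc3hav1 and Dtx3l. A gene counted as measured where the array annotation gave a probe set its symbol and no other. That held for 5 of the 7 members, out of 22180 genes measured in the same way. Parp10 and Dtx3l appear only on probe sets that also carry the symbol of another gene, so no level is given for either. Each of the 5 measured members had 1 such probe set. The family was picked from earlier results on these same arrays, in which Parp12 had been seen to fall after Anti-PD-1. The differences from Control below are therefore descriptive, and support nothing about the choice of genes.

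GL261 is a mouse glioblastoma cell line that grows in mice of the C57BL/6 strain with an intact immune system. Males 8 weeks old received the cells into the brain, and the tumour masses were taken on day 16. Each group has 3 arrays, 12 in all. TMZ, a DNA-methylating drug, was given into the peritoneum at 30 mg/kg, and the antibody, which blocks an inhibitory receptor of T cells, into a vein at 10 mg/kg with 2 injections per week. The Combination received both agents. All mice carried the same implanted line, and what the Control mice were given, the days of dosing and whether each array is a separate animal are not given in the sources used here. P values therefore measure the spread between arrays, which may be technical.

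PARP proteins transfer ADP-ribose from NAD+ onto proteins or nucleic acids. Interferons raise a subset of them through the STAT and IRF transcription factors, and this subset acts mostly by adding single ADP-ribose units, by reading ADP-ribose through macrodomains or by binding viral RNA. In brain tumours, interferon-stimulated genes can be expressed by the tumour cells themselves and by microglia, macrophages and lymphocytes. In tissue arrays fewer cells of a type and less RNA per cell cannot be told apart.

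All values are log2 signals, so a difference of 1 is a doubling. Array medians lay between 5.06 and 5.12, and arrays correlated at 0.984 to 0.991 over all probe sets. Control replicates 1 and 2 stood apart from the other arrays on the first principal component, at -20.1 and -26.4, with the treated arrays from -4.10 to 13.9 and Control replicate 3 at -1.28, inside that range. Neuron markers averaged 9.90 to 10.05 in every array, and the labels do not say how much brain tissue each mass held. T cell markers averaged 4.50 to 4.87 and natural killer cell markers 3.85 to 4.18.

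The family's promoters were searched for letters bound by interferon-activated factors. The RefSeq promoter table (build GRCm38.p6; 250 bases before to 50 bases after a start site) held 5 windows for 4 of the 7 members: Parp12, Zc3hav1 and Dtx3l with 1 each and Parp11 with 2. The core of the interferon-stimulated response element was searched as GAAANNGAA, the STAT site as TTCNNNGAA and the GC box as GGGCGG, on both strands. They occurred in 8.56%, 8.30% and 35.7% of all 32851 windows. Of the 5 member windows, the upstream window of Parp11 (chr6:127446590-127446889, plus strand) held 1 response element core and 1 STAT site. The core is read on the opposite strand, and along the gene's own strand its match begins at position -43 from the start. The STAT site begins at -37. The sites share 3 letters. The other Parp11 window held 1 GC box, and the windows of Parp12 (chr6:39118300-39118599, minus strand), Zc3hav1 (chr6:38354554-38354853, minus strand) and Dtx3l held 0 of the 3 motifs. In the Parp12 window 73.7% of bases were G or C. The window with both interferon motifs and those of the other measured members are shown as the table gives them, with capitals for the response element core and the STAT site.
Parp11: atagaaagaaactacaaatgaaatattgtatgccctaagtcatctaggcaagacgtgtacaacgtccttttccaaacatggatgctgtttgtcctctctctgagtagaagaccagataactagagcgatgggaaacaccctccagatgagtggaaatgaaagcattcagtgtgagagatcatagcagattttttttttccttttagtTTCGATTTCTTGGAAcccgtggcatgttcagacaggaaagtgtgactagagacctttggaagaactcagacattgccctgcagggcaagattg
Parp12: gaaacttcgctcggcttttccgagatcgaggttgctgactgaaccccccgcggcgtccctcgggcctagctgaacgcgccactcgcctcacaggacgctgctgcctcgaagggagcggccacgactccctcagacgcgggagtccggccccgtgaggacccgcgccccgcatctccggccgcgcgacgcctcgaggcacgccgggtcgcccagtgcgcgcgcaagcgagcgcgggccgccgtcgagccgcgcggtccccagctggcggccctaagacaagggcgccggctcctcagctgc
Zc3hav1: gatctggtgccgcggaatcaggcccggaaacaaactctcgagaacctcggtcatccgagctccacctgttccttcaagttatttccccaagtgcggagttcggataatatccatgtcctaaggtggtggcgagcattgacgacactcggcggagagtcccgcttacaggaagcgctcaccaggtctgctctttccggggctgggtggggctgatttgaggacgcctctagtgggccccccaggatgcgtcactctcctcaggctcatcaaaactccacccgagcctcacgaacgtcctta
A match of letters is a description of the window, and its absence says only that these letters are not within it. Parp11, with the motifs in 1 of its 2 windows, had the smallest difference from Control of the 5 measured members after each treatment. Parp9 and Parp14 had no window, so whether they hold the motifs is not known, and a link between motifs and differences was not tested.

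Parp12 (probe set 17466060) encodes a zinc finger enzyme that adds single ADP-ribose units and restricts several RNA viruses. Its signals were 7.71, 7.97 and 6.94 in the Control arrays and 6.72, 6.26 and 6.57 after TMZ. They were 5.93, 6.28 and 6.41 after Anti-PD-1 and 6.72, 6.89 and 6.75 in the Combination. Every treated array lay below every Control array, although Control replicate 3 stood only just above the highest Combination array. Of all genes, 6.81% lay wholly below Control after TMZ, 8.33% after Anti-PD-1 and 7.82% in the Combination. The share that did so after every treatment was not counted. Mean signals were 7.54 ± 0.54 (SD, n = 3) in Control, 6.52 ± 0.23 after TMZ, 6.20 ± 0.25 after Anti-PD-1 and 6.79 ± 0.09 in the Combination.

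Parp14 (probe set 17330099) encodes a large enzyme with macrodomains that modifies proteins with single ADP-ribose units and acts with STAT6. Signals were 6.36, 6.86 and 5.997 in Control, 6.10, 5.39 and 5.74 after TMZ, 5.35, 5.57 and 5.76 after Anti-PD-1, and 5.82, 6.004 and 5.92 in the Combination. Control replicate 3 overlapped with TMZ replicate 1 and Combination replicate 2, while all Anti-PD-1 arrays lay below all Control arrays.

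Parp11 (probe set 17463358) encodes a small enzyme that also adds single ADP-ribose units. Signals were 6.32, 6.46 and 6.15 in Control, 6.09, 6.01 and 6.16 after TMZ, 5.95, 6.22 and 6.21 after Anti-PD-1, and 6.05, 6.33 and 6.23 in the Combination. The groups overlapped in every comparison. Over the 12 arrays Parp11 spanned 0.51, against 1.38 to 2.05 for the other 4 members.

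Parp9 (probe set 17325274) encodes a macrodomain protein that works as a partner of the ubiquitin ligase DTX3L. Signals were 6.51, 6.56 and 5.77 in Control, 5.96, 5.68 and 5.16 after TMZ, 5.60, 5.43 and 5.70 after Anti-PD-1, and 5.75, 5.66 and 5.9986 in the Combination. Here too Control replicate 3 was well below the other Control arrays, and it overlapped with TMZ and the Combination but not with Anti-PD-1. In the RefSeq annotation Parp14, Dtx3l and Parp9 are consecutive protein-coding genes.

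Zc3hav1 (probe set 17466003) encodes ZAP, a zinc finger protein that binds CpG-rich viral RNA and whose PARP domain lacks catalytic activity. Signals were 6.40, 6.55 and 5.83 in Control, 5.95, 5.50 and 5.39 after TMZ, 5.17, 5.69 and 5.69 after Anti-PD-1, and 5.59, 5.70 and 5.88 in the Combination. As for Parp9, Control replicate 3 overlapped with TMZ and the Combination but not with Anti-PD-1. Control replicate 3 was the lowest Control array for all 5 members, and Control replicate 2 was the highest of all 12 arrays for all 5.

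**Figure D1:**
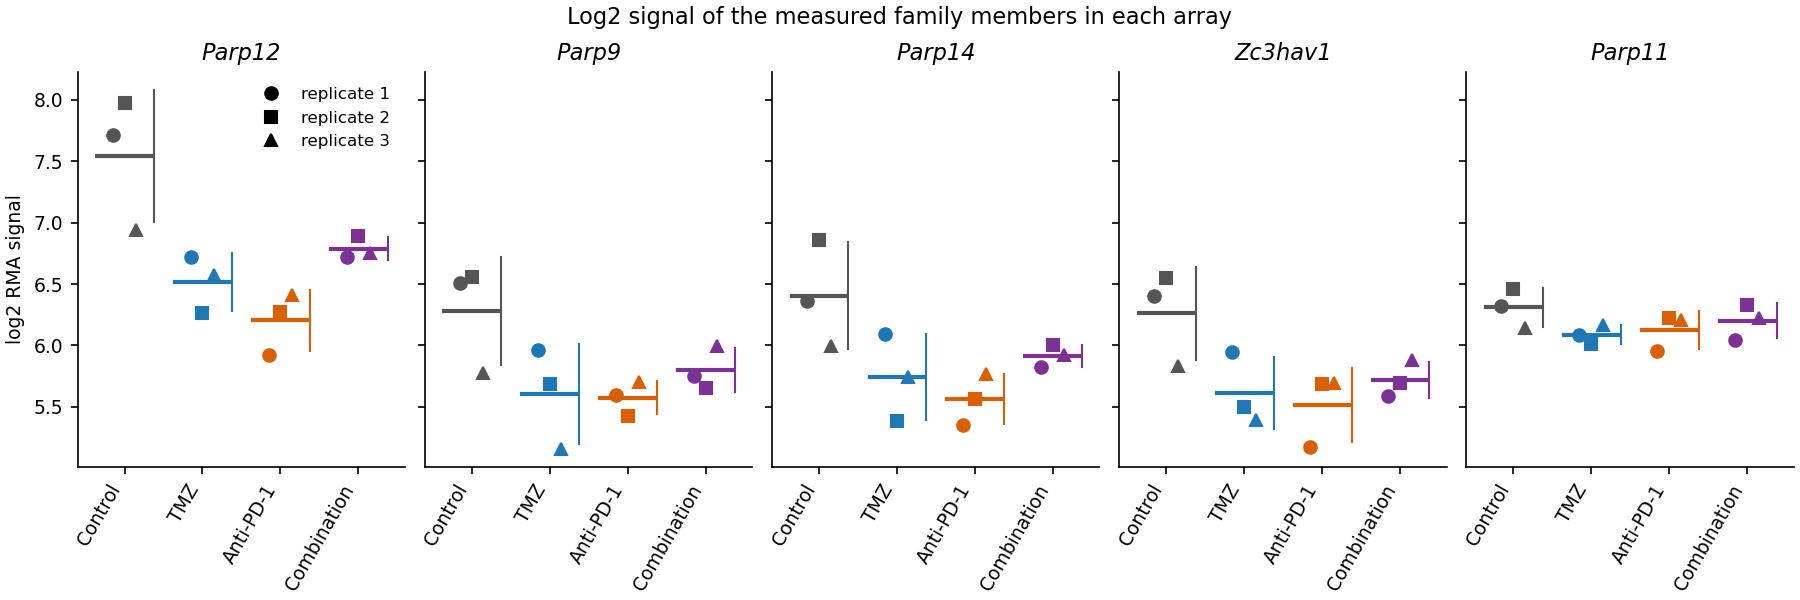
Log2 RMA signal (y axis) of the 5 measured members in each of the 12 arrays; points are arrays with a symbol per replicate number, horizontal bars are group means and thin vertical bars are 1 SD on either side (n = 3). Parp12 separates Control from every treated array, from 6.94 upward against 6.89 and below, while Parp11 overlaps in all groups. The share of all genes that separate in this way was not counted.

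After Anti-PD-1 the family members were lower than in Control. Parp12 fell 2.53-fold (log2 difference -1.34 ± 0.22 SE, limma adjusted p = 0.0461 over 22180 genes). Parp14 was at -0.85 ± 0.21 (adjusted p = 0.105), Zc3hav1 at -0.74 ± 0.20 (adjusted p = 0.139) and Parp9 at -0.70 ± 0.22 (adjusted p = 0.195), all short of the threshold of 0.05. Parp11 was at -0.18 ± 0.10 (adjusted p = 0.471). The call covers 1 of the 5 members against 0.293% of all genes, and this is the comparison in which Parp12 had been noticed. The 3 Anti-PD-1 arrays lay wholly below the 3 Control arrays for 4 of the 5 members, against 8.33% of all genes. The median difference of the members was -0.74, and that of all genes was 0.01.

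The Parp12 call depended on single arrays and on the fit. It was lost when p values were adjusted over all probe sets (adjusted p = 0.0994) and in a fit of the Control and Anti-PD-1 arrays alone (0.193). It passed in 1 of 12 fits that left out an array, the one without Control replicate 3, and the adjusted p ran from 0.00124 to 0.185. Without Control replicate 1 or 2 the difference was -1.25 or -1.12 (adjusted p = 0.185 and 0.170), and without Anti-PD-1 replicate 1, 2 or 3 it was -1.20, -1.37 or -1.44 (adjusted p = 0.135, 0.139 and 0.0920). Leaving out a TMZ or Combination array changed the pooled spread but not the difference, and gave an adjusted p from 0.05001 to 0.0709. Without Control replicate 3, 4 of the 5 members passed beside 686 genes in all, with Parp12 at -1.64, Parp14 at -1.05, Zc3hav1 at -0.96 and Parp9 at -0.96.

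After TMZ the same members were lower, with 0 of 5 past the threshold in limma against 0.0992% of all genes. At an unadjusted p under 0.05 there were 4 members and 2496 genes. Parp12 was at -1.02 ± 0.22 (SE, adjusted p = 0.126), a 2.03-fold lower signal, Parp9 at -0.68 ± 0.22, Parp14 at -0.66 ± 0.21 and Zc3hav1 at -0.65 ± 0.20 (adjusted p from 0.274 to 0.291). Parp11 was at -0.22 ± 0.10 (adjusted p = 0.454). The TMZ arrays lay wholly below Control for 1 member, Parp12, and for 6.81% of all genes. Without Control replicate 3, Parp12 and Parp9 passed in limma, at -1.32 and -0.93 (adjusted p = 0.00417 and 0.0439), beside 363 of 22180 genes in all. The median of the members was -0.66 and that of all genes 0.01.

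The Combination gave the smallest differences from Control of the 3 treatments for each member. Parp12 was at -0.75 ± 0.22 (SE, adjusted p = 0.238), Zc3hav1 at -0.54 ± 0.20, Parp14 at -0.49 ± 0.21 and Parp9 at -0.48 ± 0.22 (adjusted p from 0.350 to 0.438), and Parp11 at -0.11 ± 0.10 (adjusted p = 0.731). None of the 5 members passed in limma, and 0% of all genes did (0 of 22180), while 3 members and 2576 genes had an unadjusted p under 0.05. Parp12 was the 1 member whose Combination arrays lay wholly below Control, as 7.82% of all genes did. Without Control replicate 3 it passed in limma, at -1.05 (adjusted p = 0.0143), beside 282 of 22180 genes in all. Without Control replicate 2 the differences of Parp12 and Parp14 were -0.54 and -0.26. The 3 treatments were each set against the same Control arrays, so their differences are not independent of each other.

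**Figure D2:**
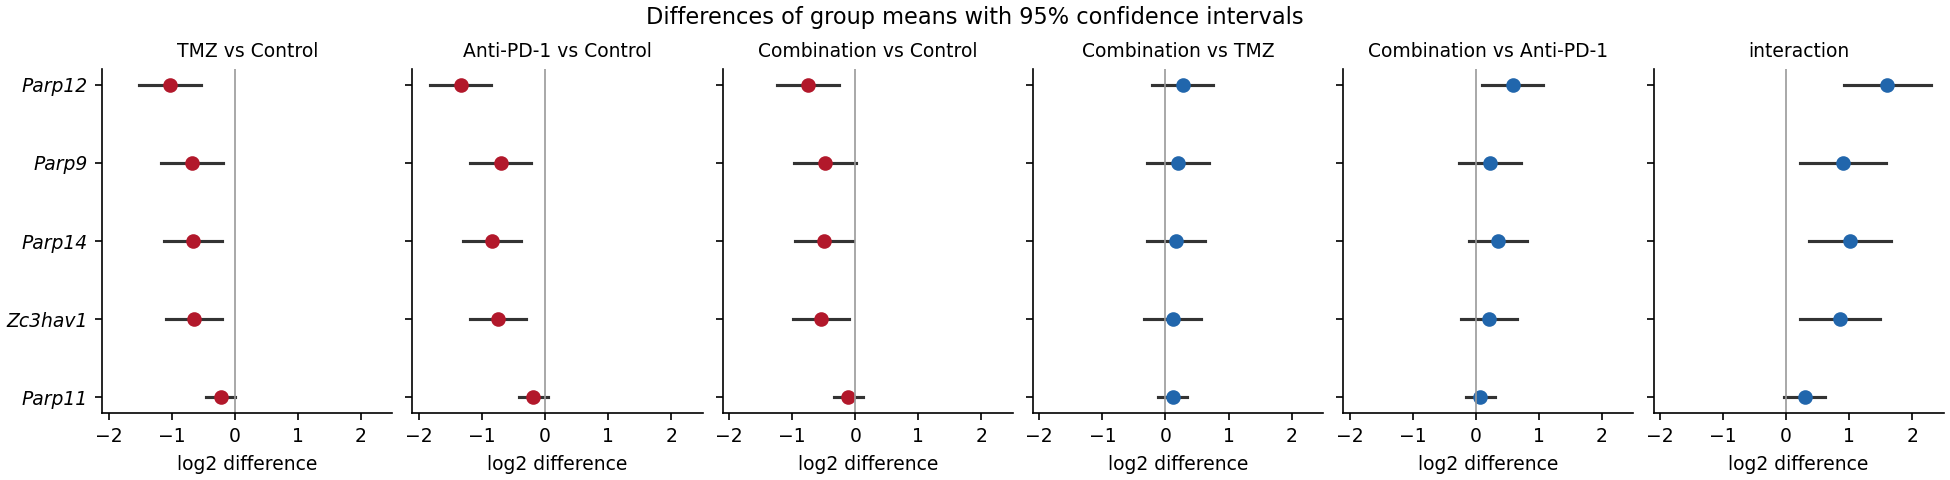
Differences of group means in log2 units (x axis) for the 5 measured members, with 95% confidence intervals from limma as bars; red points lie below 0 and blue points above it. Members lie below Control after each treatment and above 0 in the comparisons of the Combination with single agents and in the interaction. Intervals are not adjusted for the number of genes.

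Direct comparisons of the treated groups passed for none of the members. The Combination was above TMZ by 0.27 for Parp12 (95% interval -0.22 to 0.76), 0.20 for Parp9 (-0.29 to 0.69), 0.17 for Parp14 (-0.29 to 0.63), 0.11 for Parp11 (-0.12 to 0.34) and 0.11 for Zc3hav1 (-0.33 to 0.56). It was above Anti-PD-1 by 0.58 for Parp12 (0.10 to 1.07), 0.35 for Parp14 (-0.10 to 0.81), 0.23 for Parp9 (-0.26 to 0.71), 0.20 for Zc3hav1 (-0.24 to 0.65) and 0.07 for Parp11 (-0.15 to 0.30). TMZ and Anti-PD-1 differed by 0.31 for Parp12 (-0.17 to 0.80), with TMZ higher, and by -0.04 to 0.18 for the other members. In each of these 3 comparisons limma called 0 members and 0% of all genes at an adjusted p under 0.05. The counts at an unadjusted p under 0.05 were 0, 1 and 0 members, and 930, 1089 and 1000 genes. Arrays of the Combination lay wholly above those of Anti-PD-1 for 2 members, Parp12 and Parp14, beside 10.5% of all genes that separated in either direction. For the Combination against TMZ 0 members and 8.51% of genes separated, and for TMZ against Anti-PD-1 0 members and 8.77%.

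The order of group means was Control, Combination, TMZ, Anti-PD-1 for Parp12, Parp14, Parp9 and Zc3hav1, and Control, Combination, Anti-PD-1, TMZ for Parp11. The intervals above show that neighbours within the treated groups were not resolved. The interaction asks whether the Combination differs from the sum of the single-agent differences. It was positive for all 5 members: 1.61 ± 0.32 (SE) for Parp12 (adjusted p = 0.193), 1.02 ± 0.30 for Parp14 (0.365), 0.90 ± 0.31 for Parp9 (0.422), 0.85 ± 0.29 for Zc3hav1 (0.405) and 0.30 ± 0.15 for Parp11 (0.585). For Parp12 the single-agent differences of -1.02 and -1.34 stand beside -0.75 in the Combination. Of the 5 members 0 passed in limma against 0.00451% of genes, which is 1 gene; 4 members and 1978 genes had an unadjusted p under 0.05. The Control arrays enter this term, and without Control replicate 3 Parp12 passed in limma (1.91, adjusted p = 0.00783), beside 198 of 22180 genes in all. The F test over all 4 groups called 0 members and 0.00451% of genes, with an adjusted p = 0.149 for Parp12 and from 0.338 to 0.696 for the others.

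**Figure D3:**
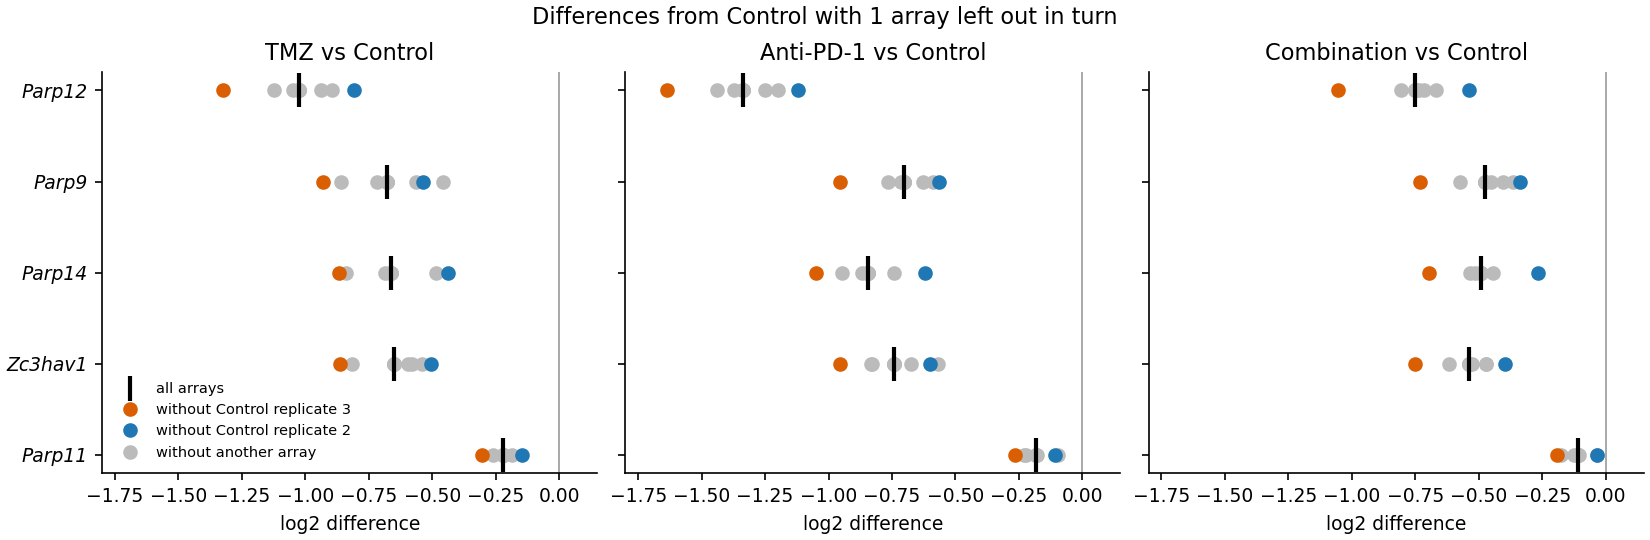
Log2 differences from Control (x axis) of the 5 measured members with all 12 arrays (black bars) and with 1 array left out in turn (points). Leaving out Control replicate 3 gives the lowest value for every member in each panel, such as -1.64 for Parp12 after Anti-PD-1, and leaving out Control replicate 2 moves each value toward 0, as far as -1.12 for the same difference.

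The members varied together across the arrays. Over the 12 arrays Pearson's r was highest between Parp12 and Parp14 (0.96) and lay between 0.80 and 0.92 for the other pairs among Parp9, Parp12, Parp14 and Zc3hav1. Pairs with Parp11 gave 0.55 to 0.80. These values contain the group differences and the place of Control replicates 1 and 2. Without those 2 arrays Parp12 and Parp14 were still at 0.92, Parp14 and Zc3hav1 at 0.80 and Parp12 and Zc3hav1 at 0.72, whereas Parp9 and Parp12 were at 0.36 and Parp9 and Parp11 at -0.06. For deviations from the group means over all 12 arrays, r was 0.92 for Parp12 with Parp14 and 0.56 to 0.85 for the other pairs of these 4 members. Parp11 was at 0.81 with Parp12, 0.74 with Parp14 and 0.70 with Zc3hav1 on this measure, above Parp9 with Parp12 (0.58) and Parp14 (0.56), but at 0.22 with Parp9. Without Control replicates 1 and 2, Parp11 was at 0.54 to 0.55 with Parp12, Parp14 and Zc3hav1. The arrays share their labelling and normalisation, and these are descriptions with no test.

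The genes whose pattern over the 12 arrays was most like the mean profile of the 5 members were Grn (progranulin, r = 0.988), Lgals9 (galectin-9, 0.985), Vim (vimentin, 0.983), Fcer1g (the Fc receptor gamma chain, 0.97505) and Ifih1 (the RNA sensor MDA5, 0.97475). Usp18, Epsti1, Psmb8, Zbp1 and Sting1 followed, at 0.974. Without Control replicates 1 and 2 these 10 genes kept r from 0.890 to 0.955. Nearest to Parp12 alone were Bst2 (0.981), Psmb8 (0.981) and Lgals9 (0.979), to Parp14 Grn (0.978), Sh3kbp1 (0.9747) and Usp18 (0.974), and to Zc3hav1 Ifih1, Vim and Psmd8 (0.967 to 0.968). Parp9 was nearest to Lamp2, Rpl41 and Smc4 (0.949 to 0.954), and Parp11 to Gm6334, Snx9 and 1700029H14Rik (0.900 to 0.923). The 3 nearest genes of each member were not shared with any other member.

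Genes of the pathway around the family were described from fixed lists. The PARP genes outside the interferon-inducible set had a median difference near 0 after Anti-PD-1: of 10 measured, 4 were higher and 6 lower, with a median of -0.04 beside -0.74 for the family. The mean level of this list still followed the family profile (r = 0.807, and 0.731 without Control replicates 1 and 2). It ran from 7.10 to 7.18 in Control and from 6.99 to 7.05 after Anti-PD-1. Parp3, which acts at DNA breaks, was lower (-0.56 ± 0.09 SE, limma adjusted p = 0.0421). Its means were 6.02 ± 0.15 in Control and 5.46 ± 0.10 after Anti-PD-1 (SD, n = 3). It was the 1 gene of this list past the threshold. This call was lost in a fit of the Control and Anti-PD-1 arrays alone, in which 0 of 22180 genes passed. Parp1, the main PARP of DNA damage signalling, was at -0.18 ± 0.07 (adjusted p = 0.303) and Tiparp, a target of the aryl hydrocarbon receptor, at -0.30 ± 0.12 (adjusted p = 0.313). The other Deltex ligases were 3 of 4 higher with a median of 0.08, and Dtx3 was at 0.26 ± 0.06 (adjusted p = 0.0844). Of the enzymes that remove ADP-ribose, 5 of 7 were measured and 4 were higher (median 0.14), with Parg at 0.19 ± 0.10, Oard1 at 0.18 ± 0.08 and Adprs, under its older symbol Adprhl2, at -0.20 ± 0.07 (adjusted p from 0.224 to 0.436). None of the measured members of these last 2 lists passed in limma.

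Partners of ZAP were divided, with 4 of 8 higher and 4 lower after Anti-PD-1. Trim25, the ubiquitin ligase that ZAP needs as a cofactor, was at -0.92 ± 0.26 (SE, adjusted p = 0.152). Khnyn, the endonuclease recruited by ZAP, was at 0.26 ± 0.09 and Exosc7, of the RNA exosome, at 0.22 ± 0.07 (adjusted p = 0.238 and 0.204), opposite in sign to Zc3hav1 itself. None of the 8 passed.

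Upstream of the family, interferons and their receptors had small differences, none past the threshold. Of 7 measured, 5 were lower after Anti-PD-1 (median -0.11), with the receptor chains Ifnar2 at -0.21 ± 0.06 (SE) and Ifngr2 at -0.13 ± 0.06 and the cytokine Ifng at -0.15 ± 0.08 (adjusted p from 0.190 to 0.442). Group means were 3.13 to 3.34 for Ifnb1 and 4.46 to 4.62 for Ifng, below the array medians of 5.06 to 5.12, and 6.93 to 7.02 for Ifna4. At such low signals a small difference does not show that Ifnb1 or Ifng was unchanged. Among the signal transducers 8 of 11 measured were lower, with a median of -0.40 and none past the threshold. Usp18, which is induced by interferon and dampens its receptor, was at -1.98 ± 0.40, Irf7 at -1.42 ± 0.32 and Irf9, the DNA-binding part of the factor ISGF3, at -0.74 ± 0.16 (adjusted p from 0.0616 to 0.0885). The kinases Jak1 and Tyk2 were at 0.10 and 0.06. Other interferon-stimulated genes were lower in 16 of 16 measured, with a median of -1.11, while 47.6% of all genes were lower. Bst2 (-2.56) and Gbp3 (-1.69) passed in limma with an adjusted p = 0.0495 for both, as 0.293% of all genes did. Both calls were lost in a fit of the Control and Anti-PD-1 arrays alone, in which 0 of 22180 genes passed. The medians of this list were -0.85 after TMZ and -0.66 in the Combination, with 0 of 16 past the threshold in either; those of the signal transducers were -0.40 and -0.33, with 0 of 11. In TMZ and in the Combination none of the genes in these 7 lists passed.

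Markers of some cell types varied with the family across the arrays, and others did so weakly or inversely. The list of proliferation and glioma cell markers had r = 0.970 with the mean member profile, and 8 of its 8 measured genes were lower after Anti-PD-1 (median -0.91), 4 of them past the threshold (Ccna2, Top2a, Mki67 and Myc). Ccna2 also passed after TMZ, as 0.0992% of all genes did. The mean level of the list ran from 6.94 to 7.55 in Control, 6.37 to 6.75 after TMZ, 6.30 to 6.48 after Anti-PD-1 and 6.55 to 6.69 in the Combination. Of all genes, 47.6% were lower after Anti-PD-1 and 0.293% passed. When only the groups compared were fitted, 0 of 22180 genes passed after Anti-PD-1 or after TMZ. Microglia markers (r = 0.880) ran from 6.80 to 6.94 in Control, 6.54 to 6.81 after TMZ, 6.69 to 6.78 after Anti-PD-1 and 6.75 to 6.82 in the Combination, with 9 of 9 measured genes lower after Anti-PD-1 and none past the threshold. Monocyte and macrophage markers (r = 0.860) ran from 5.19 to 5.56, 5.13 to 5.33, 4.96 to 5.13 and 5.07 to 5.43 in the same order, with 9 of 10 lower after Anti-PD-1 and Plac8 past the threshold (-0.69). T cell markers had r = 0.848, natural killer cell markers 0.779, dendritic cell markers 0.652, astrocyte markers 0.657, oligodendrocyte markers 0.387 and endothelium markers -0.504. The T cell and natural killer cell lists averaged 4.50 to 4.87 and 3.85 to 4.18, below the array medians. At such low signals, r does not show that these cells varied with the family.

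Neuron markers ran the other way (r = -0.860), from 9.90 to 9.99 in Control, 9.96 to 10.04 after TMZ, 10.01 to 10.05 after Anti-PD-1 and 9.96 to 10.01 in the Combination. Without Control replicates 1 and 2, r was 0.871 for proliferation and glioma cell markers, 0.777 for astrocytes, 0.772 for microglia, 0.718 for monocytes and macrophages and -0.598 for neurons. On the same arrays it was 0.620 for T cells, 0.506 for natural killer cells, 0.478 for dendritic cells, -0.086 for oligodendrocytes and -0.404 for endothelium. With the neuron marker level as a covariate the Anti-PD-1 difference of Parp12 was -0.83, and those of Parp14, Zc3hav1 and Parp9 were -0.36, -0.28 and -0.004. With the microglia marker level as a covariate they were -0.86, -0.34, -0.30 and -0.32. In the same 2 fits Parp12 was at -0.70 and -0.40 after TMZ and at -0.50 and -0.43 in the Combination. No member passed in these 2 fits. Neuron marker levels after Anti-PD-1 lay wholly above those in Control. Microglia marker levels lay wholly below, at 6.69 to 6.78 against 6.80 to 6.94. With 3 arrays per group, these fits cannot part the marker level from the Anti-PD-1 treatment. The part of cell makeup in the member differences was not tested.

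**Figure D4:**
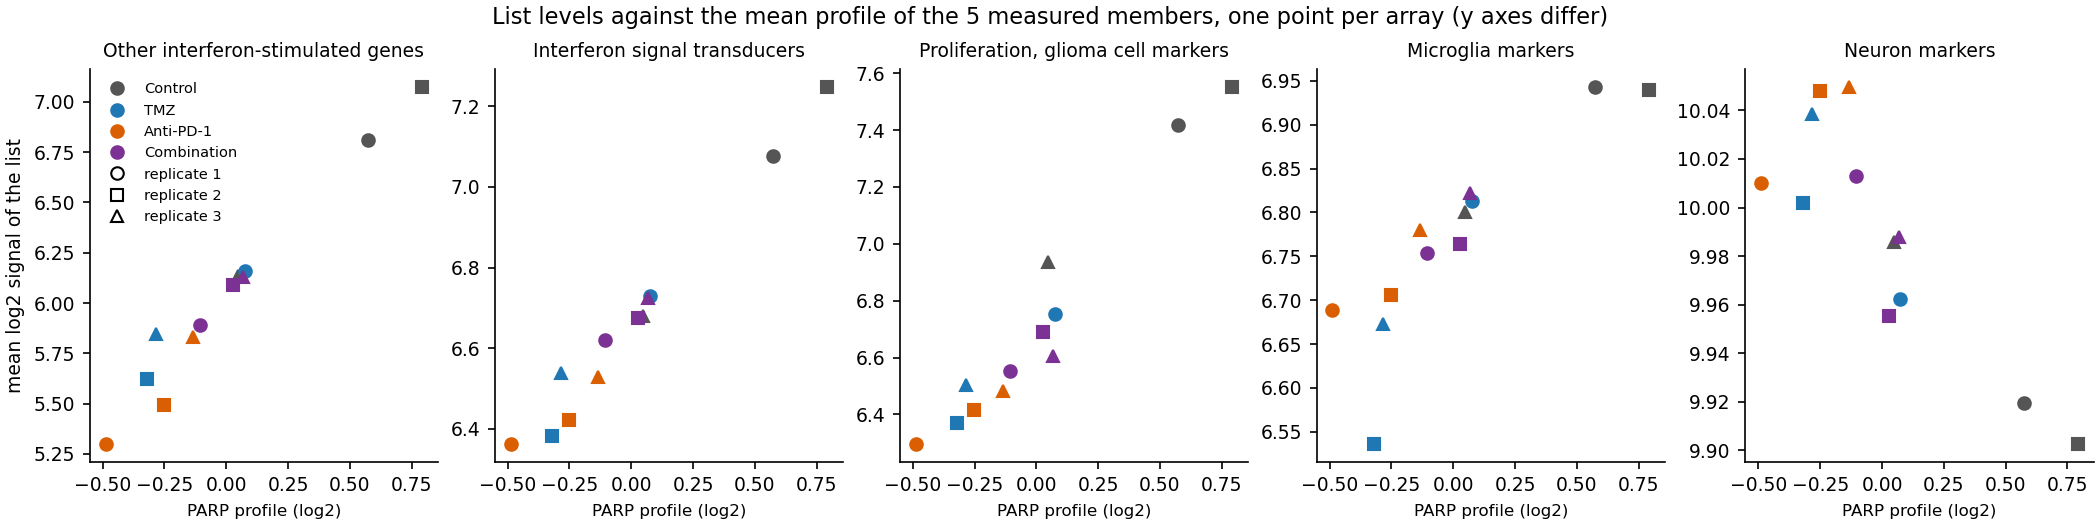
Mean log2 signal of 5 gene lists (y axes, which differ in range) against the mean profile of the 5 measured PARP members in log2 units (x axis), with a point for each of the 12 arrays, coloured by group and shaped by replicate number. Control replicates 1 and 2 lie farthest along the x axis at 0.57 and 0.79, Control replicate 3 (0.05) lies among the Combination arrays (-0.10 to 0.07), and Anti-PD-1 replicate 1 (-0.49) lies lowest.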

How the data were processed

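Total RNA of GL261 tumours was hybridised to 12 Affymetrix mouse arrays, 3 per group. Per the submitters' processing notes, the authors used RMA in the Affymetrix Expression Console; the version is not given in the sources used here. The table deposited by the authors gives 41345 probe sets on a log2 scale, with values from 1.24 to 13.14. RMA corrects background and quantile normalises all arrays together, which removes overall shifts between arrays. Of the probe sets, 23521 had 1 symbol, 1814 had several and 16010 were not listed. Where a gene had several probe sets, the one with the highest mean over the 12 arrays was used, leaving 22180 genes.

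All arrays entered one limma 3.58.1 fit in R 4.3.3 (a mean per group, contrasts, eBayes; 8 residual degrees of freedom), with two-sided p values adjusted by Benjamini-Hochberg over all genes and a threshold of 0.05. The fit was run on simulated data with planted shifts and independent noise for each gene. That setting lacks the shared variation between genes seen in these arrays, so it does not bear on whether the calls here hold. Arrays give no depth, and 3 per group limits the precision. The interaction is Combination minus TMZ minus Anti-PD-1 plus Control. Named genes were all members, genes of the fixed lists past the threshold or else the 3 with the smallest p after Anti-PD-1, with Parp1, Tiparp, Jak1 and Tyk2 named beside them for their roles after their values were seen, and the 10 genes most like the mean member profile with 3 per member. Members and lists were chosen with earlier results of these data known. Alternatives were a variance trend, a brightness filter, all probe sets, only the groups compared, a block, median centring, array weights, marker covariates and leaving out each array.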

Additional observations from a re-analysis of the deposited data

Results flagged for a closer look

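For 4 members every array of a treated group moved one way without the other agent and the opposite way with it, measured from the mean of the group it was compared with. For Parp12, Parp14 and Parp9 this held for both agents. Each Anti-PD-1 array lay below the Control mean while each Combination array lay above the TMZ mean, and each TMZ array lay below the Control mean while each Combination array lay above the Anti-PD-1 mean. For Zc3hav1 it held for TMZ only. The test of this difference is the interaction in limma, at 1.61 for Parp12, 1.02 for Parp14, 0.90 for Parp9 and 0.85 for Zc3hav1, and it passed for none of them (adjusted p from 0.193 to 0.422). Groups of 3 arrays are too small for a test of single outlying arrays. The share of all genes that show this pattern was not counted, so whether 4 members are more than usual is not known. Control replicates 1 and 2 raise the Control mean from which the arrays were measured. For a given member both agents share a single interaction value, so the pattern in both is not a second observation.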

How the results depend on the processing

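All 415 values of the member differences from Control and of the interactions under the alternatives kept their sign. Many of them could not change it. The variance trend, the brightness filter, all probe sets, only the groups compared and the replicate block leave the difference itself unchanged. So does leaving out an array of a group that is not compared. Where values could move, some came close to 0, with Parp9 after Anti-PD-1 at -0.004 and Parp14 after TMZ at -0.0088. The count of members called after Anti-PD-1 was 1 with all arrays. It was 2 with a variance trend (Parp12 and Parp14), and 0 with all probe sets, with only the groups compared, with the neuron or the microglia marker covariate and with the replicate block. With a variance trend it was 1 for TMZ and 1 for the interaction, Parp12 in both. Leaving out 1 array gave counts of 0 to 4 for Anti-PD-1, 0 to 2 for TMZ, 0 to 1 for the Combination against Control and 0 to 1 for the interaction, with the highest value of each without Control replicate 3. Among genes at or above the median level, with median-centred arrays and with array weights Parp12 stayed past the threshold after Anti-PD-1 (adjusted p from 0.0164 to 0.0393). Over all genes, 65 passed after Anti-PD-1 and 22 after TMZ with all arrays, 381 and 113 with a variance trend, 260 and 38 with array weights, 205 and 14 among brighter genes, 2 and 1 over all probe sets, 20 and 4 with the replicate block, and 0 in both with the groups compared alone or with either covariate. Leaving out an array other than Control replicate 3 gave 1 to 50 and 0 to 7, and leaving out that array 686 and 363. For the Combination against Control the counts were 0 with all arrays, 42 with a variance trend, 17 with array weights and 282 without Control replicate 3, and for the interaction 1, 12, 1 and 198.

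Sign changes occurred only between treated groups, in differences that passed in no fit. With the neuron covariate the Combination minus Anti-PD-1 differences of Parp9 and Zc3hav1 were -0.13 and -0.029, and the TMZ minus Anti-PD-1 differences were -0.22 and -0.069. With the microglia covariate the Combination minus TMZ differences were -0.037 for Parp9, -0.031 for Parp12, -0.14 for Parp14 and -0.16 for Zc3hav1, and Parp11 was at 0.00096 for TMZ minus Anti-PD-1. Leaving out 1 array gave TMZ minus Anti-PD-1 ranges of -0.15 to 0.25 for Parp9, -0.081 to 0.20 for Zc3hav1 and -0.13 to 0.0092 for Parp11. For the Combination minus TMZ the ranges were -0.0048 to 0.35 for Parp14 and -0.022 to 0.38 for Parp9, and for the Combination minus Anti-PD-1 -0.013 to 0.15 for Parp11. The cause of these changes was not tested.

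Replicate numbers are shared between groups, but arrays with the same number did not deviate together: the 18 such pairs had correlations of deviations from -0.16 to 0.16, and 4 of 12 arrays correlated best with their own number. With the replicate block Parp12 was at an adjusted p = 0.0665 after Anti-PD-1. No member had another single-symbol probe set to try.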

Other observations

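The members without a level of their own lie on probe sets with several symbols, and their values are not assigned to any gene. Probe set 17318407, annotated to Parp10 and Plec, averaged 6.57 ± 0.35 (SD, n = 3) in Control, 5.76 ± 0.22 after TMZ, 5.37 ± 0.37 after Anti-PD-1 and 5.80 ± 0.20 in the Combination. All 9 treated arrays lay below all 3 Control arrays. The differences were -0.81, -1.20 and -0.77, and limma's adjusted p over all 41345 probe sets was 0.266, 0.0994 and 0.273. Probe set 17330119, annotated to Dtx3l and Parp9, averaged 6.38 ± 0.22, 5.97 ± 0.23, 5.81 ± 0.11 and 5.93 ± 0.17 in the same order, with differences of -0.40, -0.56 and -0.44 (adjusted p = 0.384, 0.163 and 0.323). Its arrays overlapped between Control and TMZ and were wholly below Control after Anti-PD-1 and in the Combination. Of the 22180 genes, 6.81% lay wholly below Control after TMZ, 8.33% after Anti-PD-1 and 7.82% in the Combination. The share of all probe sets that separate from Control, in one treatment or in all, was not counted. Whether the separation of either probe set is unusual is therefore not known. Which of the annotated genes gave the signal cannot be told apart.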
